A study of Mus musculus with 6 samples.

Results

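Of the 795 protein-coding genes that the files list on mouse chromosome 14, 381 had at least 60 counts summed over the 6 libraries, and these 381 of 25006 genes in all are described here. They start at position 7817957 and end by position 122984035 of the mm10 assembly. The chromosome was chosen because its genes were lower in MOSE-PAX8 than in MOSE-NEO cells, and 5 of its genes (Fam208a, Arhgef3, Pnma2, Hr and Nid2) were chosen because they departed from that shift. The fold changes below are therefore a description, and where genes are said to be called at a threshold, the call sorts them by size and error and is not independent evidence. The libraries are RNA-seq read counts per gene, made from total RNA, from cultured murine ovarian surface epithelial cells, the layer that covers the ovary. One stable line, MOSE-PAX8, overexpresses PAX8, and the other, MOSE-NEO, is the reference line. Both lines were kept under G418 at 0.05 mg/mL, and each gave 3 libraries. Each group is 1 line, so PAX8 and any other difference between the lines cannot be told apart, and the labels do not state whether the cultures behind the 3 libraries were separate.

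PAX8 is a paired-box transcription factor of the thyroid, kidney and Müllerian duct, and it is a marker of serous ovarian carcinoma. The genes of a chromosome have unrelated functions, and neighbouring genes usually have promoters of their own, though genes in a short stretch can share regulatory DNA. DNA copy number was not analysed here. A difference in the RNA of a bulk culture does not show whether fewer cells express a gene or whether each cell holds less of its RNA, and these cannot be told apart.

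The libraries held 23623762 to 36367825 counts. For Pax8 itself, the reference line had 0, 1 and 1 counts and MOSE-PAX8 had 2570, 2973 and 3544, as the labels imply. Of 10 markers of ovarian surface epithelium, 7 reached a mean of 1 CPM (a count scaled to library size) in each line, among them Wt1, Gata4, Krt7 and Krt18, and Krt8, Krt19 and Lhx9 stayed below it. The summed level of this list was 10972 to 12148 CPM in MOSE-NEO and 6432 to 7486 CPM in MOSE-PAX8. Of 5 leukocyte markers, 1 reached it in MOSE-NEO (Cd68) and 2 in MOSE-PAX8 (Cd68 and Ptprc, the latter at 0.0111 and 1.95 CPM in the respective lines), and the list summed to 1.91 to 3.34 CPM in MOSE-NEO and 4.73 to 6.41 CPM in MOSE-PAX8. Of 5 granulosa or theca markers, Foxl2 alone reached it, in MOSE-PAX8 (1.81 ± 0.513 CPM, SD, n = 3, against 0.0145 CPM in MOSE-NEO), and Cyp19a1 and Fshr were at 0; the list sums were 0.159 to 0.217 CPM in MOSE-NEO and 1.70 to 2.50 CPM in MOSE-PAX8. No endothelial marker (of 4, Cdh5 at 0) reached it in either line, with list sums of 0.348 to 0.996 and 0.126 to 0.493 CPM. Of 4 fibroblast markers, Col1a1 and Dcn did in both lines, with list sums of 3795 to 4408 and 3285 to 3499 CPM. The other fibroblast markers stayed far below it, with Pdgfra at 0.119 and 0.0574 CPM and Lum at 0.0322 and 0.117 CPM in MOSE-NEO and MOSE-PAX8. The part of these markers in the results below was not tested. Long intergenic RNAs made up 0.317% of the MOSE-NEO 1 library and 0.330% of the MOSE-PAX8 2 library, against 0.146% to 0.195% in the other 4 libraries.

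The promoters of departing genes in the stretches around Fam208a and Npy4r are shown first, with that of Ccdc66, which lies in the former. These stretches were picked after their values were seen. Each sequence is the 250 bases upstream of the RefSeq gene start in GRCm38.p6, read 5′ to 3′ on the strand of the gene, and the capitals mark CG dinucleotides. The window of Fam208a is at chr14:27428584-27428833 (plus strand), between those of Arhgef3 at chr14:27143743-27143992 (plus strand) and Ccdc66 at chr14:27508461-27508710 (minus strand). The window of Erc2 lies beyond that of Ccdc66, at chr14:27622157-27622406 (plus strand). For Arhgef3 the start nearest to the annotated 5′ end among 4 listed was used. Its window still lies inside the annotated gene, which starts at position 27114899, and not at the 5′ end. The windows of Anxa8, Npy4r and Gprin2 are at chr14:34085729-34085978 (plus strand), chr14:34152420-34152669 (minus strand) and chr14:34201634-34201883 (minus strand).
Arhgef3: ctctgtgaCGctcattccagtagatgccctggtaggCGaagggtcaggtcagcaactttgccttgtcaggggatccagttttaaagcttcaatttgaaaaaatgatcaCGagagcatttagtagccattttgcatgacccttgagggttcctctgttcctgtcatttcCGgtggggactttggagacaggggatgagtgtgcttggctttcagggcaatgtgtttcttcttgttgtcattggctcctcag
Fam208a: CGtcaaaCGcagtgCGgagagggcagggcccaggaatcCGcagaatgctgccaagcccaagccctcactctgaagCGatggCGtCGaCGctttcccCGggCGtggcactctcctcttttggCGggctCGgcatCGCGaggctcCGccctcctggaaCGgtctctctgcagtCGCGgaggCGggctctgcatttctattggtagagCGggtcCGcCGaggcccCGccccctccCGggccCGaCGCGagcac
Ccdc66: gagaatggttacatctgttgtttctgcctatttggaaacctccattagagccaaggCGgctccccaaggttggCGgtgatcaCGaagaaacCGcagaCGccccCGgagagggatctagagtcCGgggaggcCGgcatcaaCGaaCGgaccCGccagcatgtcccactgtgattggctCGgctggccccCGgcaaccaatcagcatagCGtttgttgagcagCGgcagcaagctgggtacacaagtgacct
Erc2: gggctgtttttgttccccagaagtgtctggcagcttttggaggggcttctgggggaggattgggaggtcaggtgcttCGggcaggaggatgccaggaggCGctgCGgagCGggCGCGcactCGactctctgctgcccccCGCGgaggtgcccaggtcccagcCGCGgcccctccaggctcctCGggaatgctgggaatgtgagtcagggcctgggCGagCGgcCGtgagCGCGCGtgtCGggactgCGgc
Anxa8: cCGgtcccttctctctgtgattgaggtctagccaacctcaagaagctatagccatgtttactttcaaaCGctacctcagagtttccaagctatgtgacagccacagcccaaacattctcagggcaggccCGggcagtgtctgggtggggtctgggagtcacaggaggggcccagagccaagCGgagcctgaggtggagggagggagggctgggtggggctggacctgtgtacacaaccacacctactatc
Npy4r: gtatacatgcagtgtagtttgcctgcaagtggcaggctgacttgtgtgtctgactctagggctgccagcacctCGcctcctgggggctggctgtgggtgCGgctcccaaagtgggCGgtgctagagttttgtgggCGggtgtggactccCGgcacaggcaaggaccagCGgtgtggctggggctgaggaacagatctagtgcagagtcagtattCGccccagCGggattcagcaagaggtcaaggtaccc
Gprin2: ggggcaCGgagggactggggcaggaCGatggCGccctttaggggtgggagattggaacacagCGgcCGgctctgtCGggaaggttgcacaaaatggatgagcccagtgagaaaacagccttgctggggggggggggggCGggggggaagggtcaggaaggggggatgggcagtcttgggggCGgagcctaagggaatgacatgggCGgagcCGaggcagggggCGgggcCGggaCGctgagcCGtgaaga
The window of Fam208a, lower in MOSE-PAX8 by more than any other gene with counts in both lines, held 27 CG dinucleotides, that of Erc2 held 20 and that of Ccdc66 held 15. The windows of Arhgef3 and Anxa8 held 4 each, Npy4r held 8 and Gprin2 held 14.

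A promoter window was found for 290 of the 381 genes. Their median was 17 CG dinucleotides, against 6 in the first window of each of 27025 genes of the RefSeq table. That RefSeq set, called all windows below, was not filtered here by counts or gene type. The genes described are protein-coding with at least 60 counts, so the sets are unlike and nothing is read from the difference. Genes that followed the chromosome-wide shift (defined below) had a median of 17.5 (n = 242), those departing upward 10 (n = 16) and those departing downward 21 (n = 8). Motifs were searched as exact letters on both strands, and a match is only a description of the letters. The paired-domain core GCGTGAC was in 4.13% of the windows of following genes, in 0 of 24 windows of departing genes and in 1.88% of all windows. The related core GCATGAC was in the windows of Kbtbd7 and Arhgef3, in 0.413% of following genes and in 1.60% of all windows. The GC box GGGCGG was in 62.8% of following genes, 9 of 16 upward and 5 of 8 downward departing genes, against 32.9% of all windows. CCAAT was in 39.3% of following genes and 34.5% of all windows. TATAAA was in 6.20% and 13.0%, and among the departing genes only in Ndrg2.

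Most genes of chromosome 14 were lower in MOSE-PAX8, by a similar amount. After the low-count filter, 380 of the 381 genes were tested, and Gnrh1, with 65 counts, was not. Their median log2 fold change (MOSE-PAX8 over MOSE-NEO) was -0.43, which places the median gene at 74.0% of its MOSE-NEO level. Of the 380, 338 (88.9%) were below 0 and 42 were above it. The 25th and 75th percentiles were -0.63 and -0.27, and the 5th and 95th were -1.27 and 0.78. At an adjusted p below 0.05 (edgeR's quasi-likelihood test, Benjamini-Hochberg adjustment over all 12313 genes tested), 250 were called lower, which is 65.8%, where the share of all genes tested was 16.1%. Another 24 were called higher, 6.32%, where the share of all genes was 17.9%. All 3 MOSE-PAX8 libraries lay below all 3 MOSE-NEO libraries for 277 genes, against 22.2% of all genes tested, and above them for 28, against 25.3%. The contrast chose the chromosome, so nothing is read from these shares. The 12 other chromosome 14 genes tested, which are not protein-coding, had a median of -0.36, and 9 of them were below 0.

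**Figure D1:**
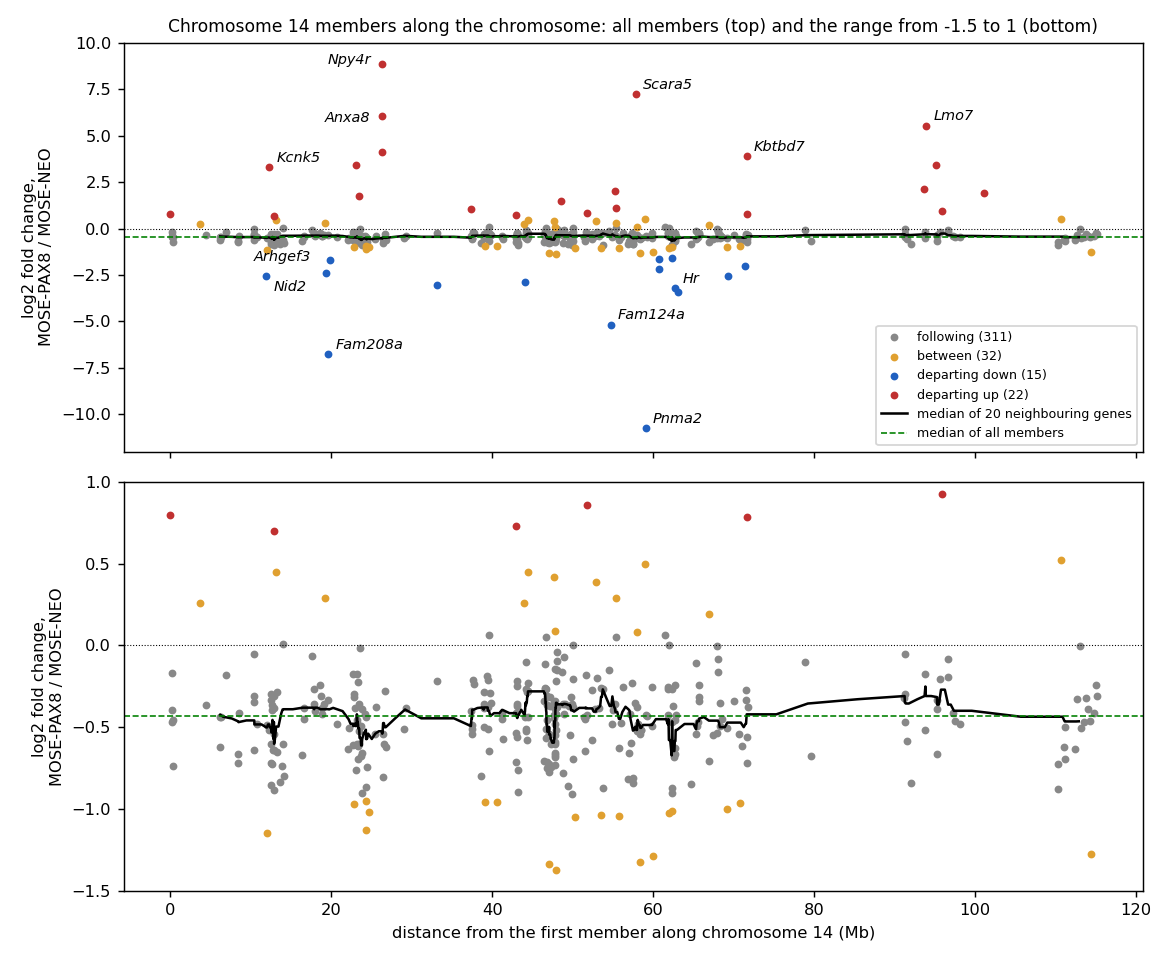
Log2 fold change (MOSE-PAX8 over MOSE-NEO) of each gene tested against its distance from the first gene in Mb, over the full range (top) and a narrower one (bottom), coloured by class, with the running median of 20 neighbouring genes as a line and the median of all as a dashed line. The following genes form a band around -0.43 along the whole chromosome, and Pnma2 and Fam208a lie farthest below it.

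The shift was seen in each library. On the log2(CPM + 1) scale, the median difference of the genes from the MOSE-NEO mean was -0.43, -0.43 and -0.38 in MOSE-PAX8 1, 2 and 3. Each MOSE-NEO library set against the other 2 gave -0.01, 0.01 and -0.01. The 11498 protein-coding genes of the other chromosomes gave 0.02, 0.03 and 0.02 in the MOSE-PAX8 libraries. Over the 9 pairs of a MOSE-PAX8 with a MOSE-NEO library, the median ran from -0.44 to -0.36, with 81.8% to 90.8% of genes lower. Over the 6 pairs within a line it ran from -0.03 to 0.05, so the pairs between lines and the pairs within a line did not overlap. The contrast between the lines chose the chromosome, so nothing is read from this separation.

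**Figure D2:**
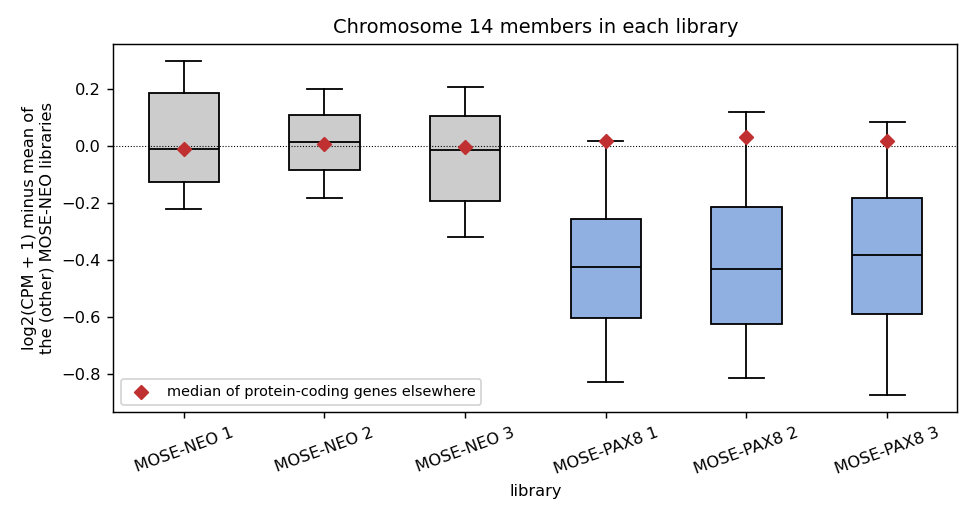
Log2(CPM + 1) difference of the chromosome 14 genes in each library, from the mean of the other MOSE-NEO libraries (grey) or from the MOSE-NEO mean (blue), as boxes of the 25th to 75th percentile with the median and whiskers at the 10th and 90th, and diamonds at the median of genes elsewhere. The 3 MOSE-PAX8 medians lie between -0.43 and -0.38, and the 3 MOSE-NEO medians lie near 0.

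The genes took 2.71%, 2.65% and 2.70% of the protein-coding counts in MOSE-NEO 1, 2 and 3 (2.69% ± 0.0326, SD, n = 3). In the MOSE-PAX8 libraries they took 2.04%, 2.05% and 2.12% (2.07% ± 0.0423, SD, n = 3). The groups did not overlap, and their gap exceeded the spread within either line. Since the chromosome was chosen for lower levels in these same libraries, the gap is a description only. These genes are 3.22% of the 11827 protein-coding genes with at least 60 counts. With the 210 most abundant protein-coding genes left out, of which 1 (Tsc22d1) is on chromosome 14, the shares were 3.41% ± 0.031 and 2.54% ± 0.0397 (SD, n = 3). The difference then moved from -0.618 to -0.878 percentage points.

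Chromosome 14 stood below every other chromosome on this measure. The medians of the other autosomes and the X ran from -0.14 on chromosome 3 to 0.27 on chromosome 7, and the share of genes below 0 ran from 21.3% on chromosome 7 to 65.3% on chromosome 2. The spread around the median lay within the range of the other chromosomes. The interquartile range was 0.37, where the other chromosomes ran from 0.33 on chromosome 5 to 0.89 on chromosome 3. Of the genes of chromosome 14, 81.8% lay within 0.5 of their own median, where the others ran from 58.5% to 83.7%. At least 1 log2 unit from it lay 9.74%, where the others ran from 6.05% to 18.3%. In sliding windows of 20 genes, all 361 window medians of chromosome 14 were below 0, from -0.67 to -0.25. On chromosome 3, whose median came closest, the windows ran from -0.77 to 0.81. Windows almost all on 1 side of 0 were also seen in the upward direction. On chromosome 12, 0 of 387 window medians were below 0 (0.02 to 0.47), on chromosome 19 6 of 421 and on chromosome 7 7 of 854. The lowest window median was on chromosome 18, at -0.83, where the windows ran up to 1.33.

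**Figure D3:**
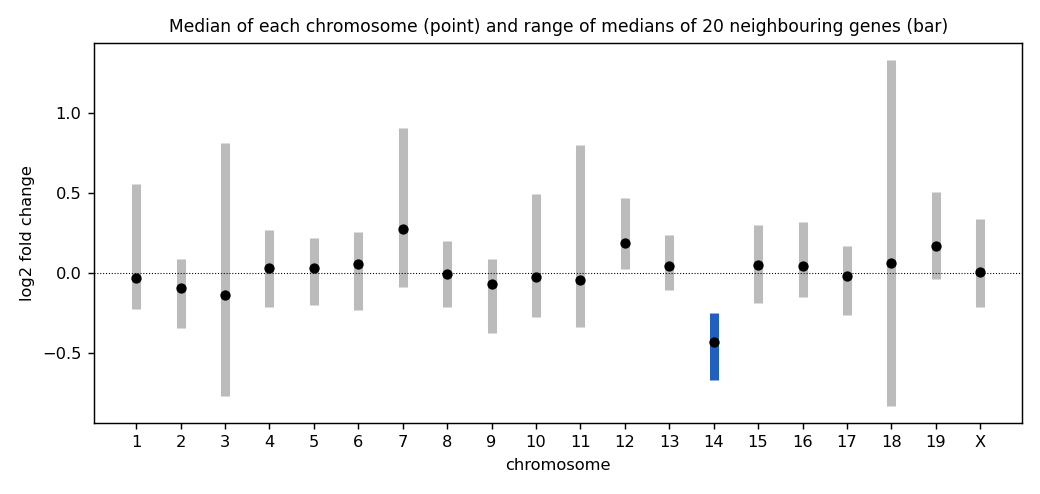
Median log2 fold change (MOSE-PAX8 over MOSE-NEO) of the protein-coding genes tested on each chromosome (points) and the range of medians of 20 neighbouring genes (bars). Chromosome 14 (blue) lies at -0.43 with a bar from -0.67 to -0.25, wholly below 0, and the next lowest point is chromosome 3 at -0.14.

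The shift changed little along the chromosome. In bins of 10 Mb the median lay between -0.39 and -0.51, except at 100 to 110 Mb, where it was -0.20 over 16 genes, 5 of them departing upward, and at 110 to 120 Mb, where it was -0.66 over 6 genes. Split into 4 groups of 95 genes by exon length, the medians were -0.46, -0.42, -0.44 and -0.43 from the shortest to the longest. By GC content they were -0.41, -0.44, -0.44 and -0.46 from the lowest to the highest. By level the medians were also close, at -0.38, -0.42, -0.42 and -0.47, but the interquartile range narrowed from 0.82 in the lowest group to 0.27 in the highest. That lowest group, with mean levels up to 13.3 CPM, held 30 of the departing genes.

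Genes within 0.5 log2 units of the median are called following here. Departing genes lie at least 1 unit from the median and differ from it at an adjusted p below 0.05 in an edgeR fit whose null value is the median. By these criteria 311 of the 380 genes (81.8%) followed the shift, 37 (9.74%) departed and 32 lay between. Of the following genes, 216 were called lower against 0, 95 were not called and none was called higher. Over all genes tested, 16.1% were called lower and 17.9% higher. For 243 following genes all MOSE-PAX8 libraries lay below the MOSE-NEO libraries, against 22.2% of all genes tested. The class was defined by closeness to the median and held log2 fold changes from -0.91 to 0.06, so nothing is read from these counts. The median standard error of a following gene was 0.10 log2 units. Their libraries varied as those of genes elsewhere did, with a median SD of 0.12 on the log2(CPM + 1) scale in MOSE-NEO for both sets and 0.11 in MOSE-PAX8 for both.

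The most abundant following gene was Tsc22d1, a leucine-zipper regulator of transcription that is induced by TGF-beta. It was at 1488, 1680 and 1918 CPM in the MOSE-NEO libraries and at 1239, 1154 and 1329 CPM in the MOSE-PAX8 libraries. All MOSE-PAX8 libraries lay below all MOSE-NEO libraries, with a log2 fold change of -0.45 ± 0.11 (SE). Lats2, a kinase of the Hippo pathway, was at 553, 444 and 627 CPM and at 323, 264 and 278 CPM, also without overlap. Its log2 fold change of -0.91 ± 0.14 was the lowest that still counted as following. Nisch, which encodes the integrin-binding protein nischarin, fell from 547.5 ± 81.1 to 357 ± 57.7 CPM (SD, n = 3). The others of the 6 most abundant were closer to the median or above it. Arf4, a GTPase of vesicle traffic, was at 361, 400 and 421 CPM and at 309, 261 and 313 CPM. Ctsb, the lysosomal protease cathepsin B, went from 381 ± 44.7 to 297 ± 25.8 CPM. Loxl2, a matrix-crosslinking lysyl oxidase, went from 377 ± 27.6 to 316 ± 26.0 CPM (SD, n = 3) and was not called, though its libraries did not overlap.

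The 37 departing genes were split into 15 downward, 3.95% of the chromosome 14 genes tested, and 22 upward, 5.79%. Over all genes tested, 3.16% departed downward and 5.92% upward from the median of their own chromosome. The shares are close, so nothing is read from these counts. The departing genes were low in level, with a median of 3.43 CPM and 24 of 37 under 5 CPM, against 34.9 CPM for following genes. Exon length (median 4527 against 4933 bases) and exonic GC content (50.7% against 48.6%) were close. Of those upward, 8 had under 30 counts in the MOSE-NEO libraries together, and of those downward, 7 had under 30 in MOSE-PAX8. Those 15 reached 60 counts mainly through the line in which they were high, so they had to differ.

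The widest gap was that of Pnma2, a member of the paraneoplastic Ma antigen family. MOSE-NEO 1, 2 and 3 had 244, 141 and 206 counts of it, and each MOSE-PAX8 library had 0. Set against a floor of 3 counts over the group, the level was at least 235-fold lower in MOSE-PAX8, a bound that covers counting error only. Fam208a, also named Tasor, encodes a subunit of the HUSH complex, which silences transposons and other genes through histone methylation. MOSE-NEO 1, 2 and 3 had 1038, 590 and 714 counts of it, against 11, 11 and 3 for the other line. Its mean fell from 27.4 ± 4.89 to 0.246 ± 0.135 CPM (SD, n = 3), a log2 fold change of -6.77 ± 0.28 (SE). In both genes every MOSE-PAX8 library lay far below every MOSE-NEO library.

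Hr, the corepressor of nuclear receptors known as hairless, was at 19.4, 16.8 and 12.4 CPM in MOSE-NEO and at 1.86, 1.89 and 1.45 CPM in MOSE-PAX8. The groups were separate, and the log2 fold change was -3.22 ± 0.20 (SE). Nid2, which encodes the basement membrane protein nidogen-2, was at 41.7, 68.7 and 37.1 CPM and at 7.19, 10.2 and 7.43 CPM. MOSE-NEO 2 stood above the other libraries of its line, and the 3 MOSE-PAX8 libraries were all lower, with a log2 fold change of -2.57 ± 0.25 (SE). Arhgef3, a guanine nucleotide exchange factor for small GTPases, was at 6.45, 6.83 and 6.97 CPM and at 1.45, 1.04 and 1.33 CPM. Its libraries were tight within each line, and its log2 fold change was -2.40 ± 0.18 (SE).

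Among the other genes departing downward, Fam124a was at 7.28, 6.70 and 7.97 CPM in MOSE-NEO and at 0.191, 0.220 and 0.185 CPM in MOSE-PAX8, with no overlap. Fam213a, a peroxiredoxin-like protein, went from 13.3 ± 0.957 to 1.58 ± 0.325 CPM (SD, n = 3). Erc2, a scaffold protein best known from the presynaptic active zone, went from 22.5 ± 4.54 to 7.04 ± 0.659 CPM. Adam28, a membrane-anchored metalloprotease, went from 8.86 ± 1.88 to 2.87 ± 0.353 CPM. The remaining genes of this direction were Gfra2, Ndrg2, Enox1, Adamdec1, Rgcc and 9930012K11Rik, with log2 fold changes from -3.43 to -1.57. In all 15 the libraries of the lines did not overlap, where MOSE-PAX8 lay lower without overlap for 22.2% of all genes tested. The class was defined by this same contrast, so nothing is read from that.

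Among the genes departing upward, Kcnk5, a background potassium channel, was at 4.77, 7.13 and 4.88 CPM in MOSE-NEO and at 50.4, 50.1 and 64.4 CPM in MOSE-PAX8, a log2 fold change of 3.31 ± 0.18 (SE). Kbtbd7, a substrate adaptor of a cullin ubiquitin ligase, was at 1.12 ± 0.377 and 17.0 ± 1.18 CPM (SD, n = 3), a log2 fold change of 3.89 ± 0.21. Both genes were several times higher in every MOSE-PAX8 library than in any MOSE-NEO library. Tbc1d4, a Rab GTPase-activating protein of insulin-stimulated glucose uptake, rose from 5.85 ± 0.744 to 25.4 ± 5.81 CPM (SD, n = 3). Kctd12, an auxiliary subunit of GABA-B receptors, rose from 0.582 ± 0.0368 to 6.28 ± 1.78 CPM.

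Several of the upward genes were near or at 0 in MOSE-NEO. Npy4r, a receptor of pancreatic polypeptide, had 0 counts over the 3 MOSE-NEO libraries and 186 over the MOSE-PAX8 libraries, at least 52.0-fold higher by the floor of 3 counts over the group. Scara5, a scavenger receptor that binds ferritin, had 2 and 415 counts, a ratio of 174 (95% exact counting interval 47.9 to 1442). Anxa8, a calcium-dependent phospholipid-binding annexin, had 3 and 258 counts, a ratio of 72.2 (24.4 to 352). Lmo7, a protein of actin and cell junctions, was at 0.0635, 0.0435 and 0.133 CPM in MOSE-NEO and at 2.90, 4.31 and 4.81 CPM in MOSE-PAX8. These genes were chosen for description after their values were seen, except Scara5 and Lmo7, and their levels in MOSE-PAX8 stayed under 5 CPM in each library. Defb42, a beta-defensin, had a log2 fold change of 2.00, Txndc16, a thioredoxin-domain protein, of 1.07 and Fut11, a fucosyltransferase, of 0.70.

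Of these 22, 20 were called higher against 0 (17.9% of all genes tested), and their libraries did not overlap (25.3% of all genes tested). The class was defined by distance above the median, so nothing is read from these counts. Neil2, a DNA glycosylase of base excision repair, and Ccnb1ip1, a ubiquitin ligase of meiotic recombination, were not called against 0, and their libraries overlapped between the lines. Neil2 was at 2.54, 1.09 and 0.697 CPM in MOSE-NEO and at 1.70, 5.69 and 1.94 CPM in MOSE-PAX8. The highest library of each line was the one with the larger share of long intergenic RNA, and the part of that in the result was not tested. Without MOSE-NEO 2, without MOSE-NEO 3 or without MOSE-PAX8 2, neither gene departed, and 20, 21 and 22 genes departed upward. Without MOSE-PAX8 3, Ccnb1ip1 did not depart.

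**Figure D4:**
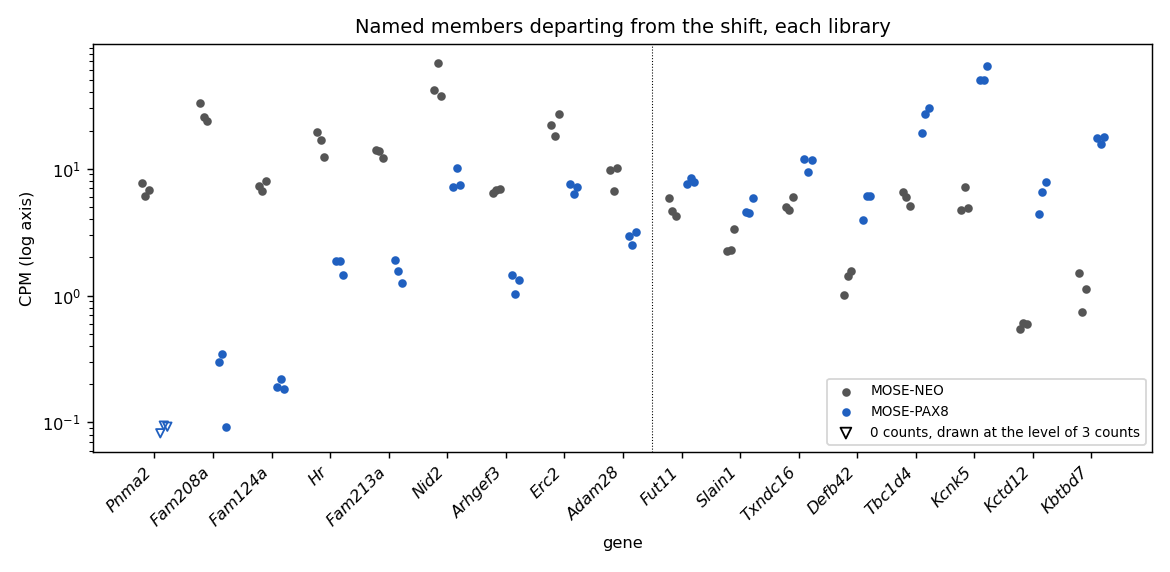
Level in each library, in CPM on a log axis, of 17 departing genes, 9 downward (left of the dotted line) and 8 upward, with MOSE-NEO in grey, MOSE-PAX8 in blue and open triangles for 0 counts drawn at the level of 3 counts. The libraries of the lines are separate for each gene shown, from Kcnk5 at 50.1 to 64.4 CPM in MOSE-PAX8 down to Pnma2, which had 0 counts there.

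Some departing genes lay beside genes that followed the shift, and others lay beside each other. Arhgef3 and Fam208a are neighbours 24.9 kb apart, and Erc2 starts 138.9 kb after Fam208a, so 3 genes in one stretch departed downward. Ccdc66, a protein of centrosomes and cilia, lies between Fam208a and Erc2, overlaps Fam208a, and was at 25.7 ± 0.715 CPM in MOSE-NEO and at 20.5 ± 1.65 CPM in MOSE-PAX8 (SD, n = 3). Its log2 fold change was -0.33 ± 0.09 (SE), so it followed the shift while its neighbours on both sides did not. On the outer sides, Il17rd, an inhibitor of FGF signalling, was at 0.29 and lay between the classes. Appl1, an endosomal adaptor, was at -0.36 and Wnt5a, a secreted Wnt ligand, was at -0.48. The strand setting of the counting is not given in the sources used here, so the counts where Ccdc66 and Fam208a overlap are uncertain.

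Around Pnma2, the log2 fold changes were 0.50 for Dpysl2, -0.43 for Bnip3l, -0.43 for Ppp2r2a, -0.25 for Cdca2, -0.51 for Stmn4 and -0.52 for Trim35. The neighbours of Hr ran from -0.68 for Polr3d, a subunit of RNA polymerase III, to -0.24 for Reep4, with Bmp1, a procollagen protease, at -0.66. Around Nid2, Rtraf, which overlaps it, was at -0.48, and the others ran from -0.64 for Nkiras1 to -0.35 for Ube2e1, apart from the G protein subunit gene Gng2 at -1.15. Of these 18 neighbours of Pnma2, Hr and Nid2, 16 followed the shift, and Dpysl2 and Gng2 lay between the classes. Of all genes tested on the chromosome 81.8% followed it, so nothing is read from this count.

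Of the 37 departing genes, 7 pairs were adjacent in the order of the genes described, and 6 of these moved in the same direction. Adjacent here does not mean close, since Lmo7 and Kctd12 lie 1042 kb apart. Fam213a and Txndc16, which moved in opposite directions, lie 4120 kb apart. Whether 7 differs from the number in a random order of the genes was not tested. Anxa8, Npy4r and Gprin2 lie next to each other with gaps of 43.4 and 33.2 kb, and all 3 were higher in MOSE-PAX8. Mapk8, the stress kinase JNK, at -0.38, and Shld2, a DNA repair factor, at -0.80, stood on either side of them. Kbtbd7 and Kbtbd6 lie 20.8 kb apart, and both were higher, at log2 fold changes of 3.89 and 0.78. Rgcc, a regulator of the cell cycle, was lower at -2.03 and has 2 genes between it and Kbtbd7. Adamdec1 and Adam28, related metalloproteases, lie 23.9 kb apart, and both were lower. Tbc1d4, Lmo7 and Kctd12 were all higher, with Commd6 at -0.52 and Uchl3 at -0.17 between the first of them. These runs were picked after the values were seen.

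By function, the genes were described in 9 lists, and each list held genes that followed the shift. No test compared the lists, and each is described beside the share of genes departing on this chromosome (9.74%, and 3.16% down and 5.92% up over all genes) and beside the shares called over all genes (16.1% lower, 17.9% higher) and the median over all genes tested, 0.01. Of 26 tested genes of secretory and membrane traffic, 22 were called lower and none higher, the median was -0.44, and 25 followed the shift. Dnajc3, a chaperone of the endoplasmic reticulum, went from 231 ± 4.67 to 143 ± 12.2 CPM (SD, n = 3), while Ipo5, a nuclear import receptor, stayed at 242 ± 7.59 and 241 ± 22.2 CPM. Ncoa4, the autophagy receptor of ferritin, lay between the classes at -1.13.

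Of 19 genes of RNA processing and translation, 11 were called lower, none was called higher and all 19 followed the shift, with a median of -0.37. Mbnl2, a splicing regulator, was at -0.63, and Hnrnpc, an RNA-binding protein of nascent transcripts, was at -0.10 and not called. Of 14 genes of the proteasome and ubiquitin pathway, 9 were called lower, with a median of -0.46, and only Kbtbd7 was called higher. Psmc6, an ATPase of the proteasome, was at -0.49, and Mycbp2, a ubiquitin ligase, was at -0.33 and not called. Of 22 genes of mitochondria and metabolism, 9 were called lower and none higher, with a median of -0.28. Vdac2, a channel of the outer mitochondrial membrane, was at 192 ± 16.4 and 193.5 ± 15.6 CPM, and the gluconeogenic Pck2 was at 0.42 and not called.

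Chromatin and transcription genes numbered 23 tested of 33 listed, with 17 called lower, a median of -0.45 and 19 followers. Pbrm1, a subunit of a SWI/SNF remodelling complex, was at -0.61. Fam208a and Hr departed, and Sall2, a zinc-finger factor, was the 1 gene called higher, at 0.45. Cell cycle and DNA repair genes numbered 20, with 7 called lower, none called higher, and a median of -0.21. Top2b, a DNA topoisomerase, was at -0.41 in this list. Signalling genes numbered 19 of 28 listed, with 16 called lower, a median of -0.51 and 12 followers. Bmpr1a, a receptor of bone morphogenetic proteins, was at 398, 399 and 404 CPM in MOSE-NEO and at 291, 245 and 254 CPM in MOSE-PAX8. Its libraries did not overlap, and its log2 fold change was -0.60 ± 0.09 (SE). Prkcd, a protein kinase C, lay between the classes at -0.97, and Gfra2, a receptor of neurturin, departed at -3.43.

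Adhesion and cytoskeleton genes numbered 15 of 24 listed, with 9 called lower and 4 called higher, a median of -0.35 and 8 followers. Those called higher were Lmo7, Dpysl2 at 0.50, Ptprg at 0.26 and Vcl, the focal adhesion protein vinculin, which went from 269 ± 43.3 to 367 ± 27.7 CPM (SD, n = 3). Fermt2, an activator of integrins, was at -0.21. Extracellular matrix and secreted genes numbered 9 of 16 listed, with 4 called lower and 2 called higher, a median of -0.36 and 5 followers. Nid2 and Adam28 departed downward, and Scara5 and Sema3g, a secreted semaphorin at 1.77, departed upward.

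**Figure D5:**
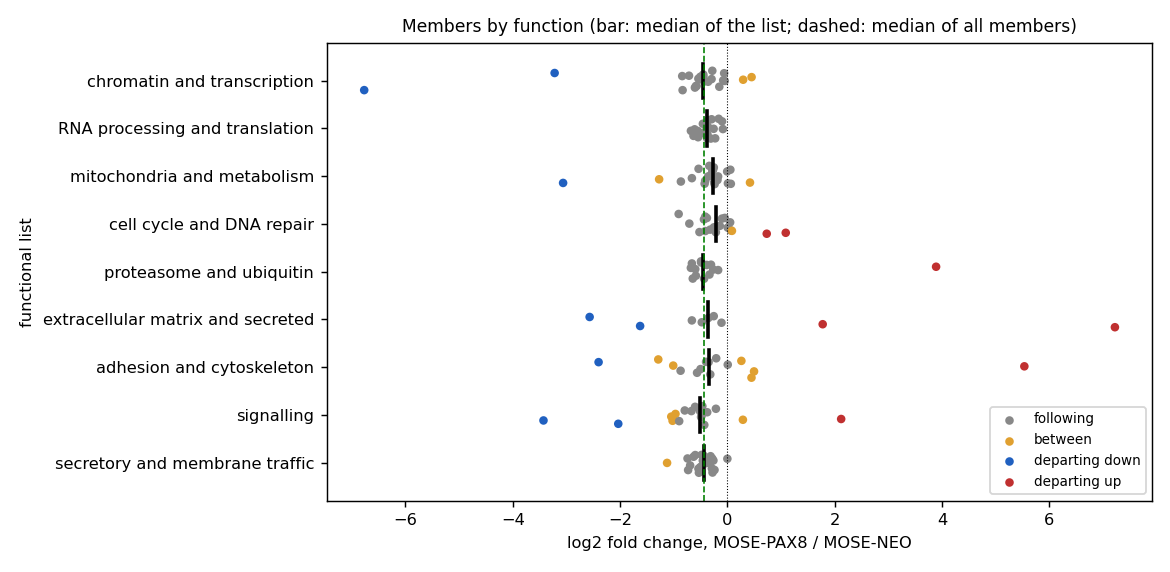
Log2 fold change (MOSE-PAX8 over MOSE-NEO) of every tested gene of the 9 functional lists, 1 row per list, coloured by class, with a bar at the median of the list and a dashed line at the median of all chromosome 14 genes. Secretory traffic and RNA processing genes lie close around -0.43, and the matrix and adhesion lists spread on both sides.

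Of the 32 genes between the classes, 13 lay above the shift and 19 below it. All 19 were called lower (16.1% of all genes tested), with a median of -1.04, and their libraries did not overlap (22.2% of all genes tested). They were defined by distance below the median, so nothing is read from these counts. Among these 19, chosen after their values were seen, Ptk2b, a focal adhesion kinase, was at 197 ± 31.5 and 78.9 ± 7.21 CPM (SD, n = 3). Dock5, an exchange factor for Rac, was at 355 ± 43.5 and 145 ± 19.1 CPM. Of the 13 above, 4 were called higher and 9 were not called. Gata4, a transcription factor of gonadal and heart development, was among the 9, at 0.29.

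The minimum of 60 counts left out 414 protein-coding genes of the chromosome, of which 267 had 0 counts in all 6 libraries. Olfactory receptor symbols made up 39 of the 414 and vomeronasal receptor symbols 2. Just inside the minimum were Itih4 with 60 counts (0, 2 and 2 in MOSE-NEO, 15, 14 and 27 in MOSE-PAX8) and Tssk4 with 63. Just outside it were Il3ra with 56 and Sh2d4b with 55, both split over the lines. Of the 381 genes, 105 overlap another protein-coding gene, and their counts are less certain for that reason.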

How the data were processed

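RNA-seq was analysed for 3 MOSE-NEO and 3 MOSE-PAX8 libraries. The authors deposited raw counts per gene, 1 file per library. Per the submitters' processing notes, cutadapt 1.13, STAR, HTSeq 0.6.1p1 and DESeq2 were used with mm10 and GENCODE M21, and the strand setting is not given in the sources used here. Of 25006 gene identifiers, 24991 matched GENCODE M21. Libraries held 23623762 to 36367825 counts, and CPM values use these totals multiplied by TMM factors.

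All genes were fitted together in R 4.3.3 with edgeR 4.0.16 (filterByExpr, TMM, quasi-likelihood test, Benjamini-Hochberg over 12313 genes). Departing genes came from the same fit with the chromosome's median as an offset. Alternatives used DESeq2 1.42.0, limma 3.58.1 (voom), other scalings and filters, and each library left out. The scripts were tested on simulated data. No source says that the libraries of a line are separate cultures, so the p-values cover the variation among the libraries alone, which may be technical.

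Members and gene lists were chosen with earlier results of these data known. Genes named by rule were the 5 in the choice of the chromosome and their 3 nearest members on each side, the 10 farthest departing genes in each direction with at least 5 CPM in the higher line, the 6 most abundant followers, up to 4 per list (the most abundant and the farthest) and those at the count minimum; 1 gene that the rule names is not reported here. Promoter sequences are from RefSeq (GRCm38.p6).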

Additional observations from a re-analysis of the deposited data

How the results depend on the processing

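The number of chromosome 14 genes called lower (250) and higher (24), the median log2 fold change (-0.43) and the numbers departing downward (15) and upward (22) kept their direction and stayed within 1.5 times under every alternative run. DESeq2 called 254 lower and 23 higher, limma-voom 249 and 24, and upper-quartile scaling 243 and 24. Scaling factors computed without chromosome 14 gave 256 and 24 and a median of -0.45. A filter of 1 CPM in 3 libraries left 362 genes, of which 12 departed downward and 18 upward. With single libraries left out, genes called lower ran from 212 to 246, genes called higher from 19 to 24, the median from -0.45 to -0.43, departing genes from 15 to 16 downward and 20 to 23 upward, and the difference in share of counts from -0.642 to -0.602 percentage points. Leaving out the most abundant 1% of genes moved that difference from -0.618 to -0.878. With the replicate number as a block, the counts were 250 lower and 27 higher, with 15 and 21 departing. Same-numbered libraries showed no uniform pairing, since their deviations from the mean of their line correlated at -0.487, 0.076 and 0.504. Libraries of unlike number also shared variation, with MOSE-NEO 1 and MOSE-PAX8 2, both rich in long intergenic RNA, at 0.68. MOSE-NEO 3 was at 0.494 with MOSE-PAX8 1 and at -0.735 with MOSE-PAX8 2. Deviations from the mean of a line depend on one another, so these correlations are not separate observations. The source of this shared variation was not tested. Chosen after seeing the data, leaving out both libraries rich in long intergenic RNA gave 226 lower and 23 higher, with 16 and 24 departing. No named gene that was called changed sign; Vdac2, Ipo5 and Tssk4, which were not called, did so under 7, 5 and 2 alternatives. Slain1, Ctsb, Vcl, Appl1, Ccdc66, Nudt18, Ube2e1, Gng2 and Saysd1 missed the threshold under at least 1 alternative, and Loxl2, Acin1, Pck2, Mycbp2, Cdca2 and Reep4 passed it under at least 1; the cause was not tested. Depth limits the lowest genes, since 24 of the 37 departing genes were under 5 CPM.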
